A study of Rattus norvegicus with 12 samples.

Results

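The comparison is between the thoracic aorta of spontaneously hypertensive rats given captopril (SHR-Ca) and that of Wistar-Kyoto rats (WKY), the normotensive strain usually set beside them. It asks what still differs from the normotensive strain in hypertensive rats on the drug. It rests on 6 of the 12 arrays of the series, 3 titled SHR-Ca and 3 titled WKY. The scanner software marks spots well above background, here said to clear background. Testing was limited to probes that cleared background on every array of SHR-Ca, of WKY or of both, which kept 29241 of 38321 probes (76.3%). Of 38 genes that could be named, 31 were tested. All rats were male and 12 weeks old at the start. Captopril was given to SHR-Ca rats by gavage once daily for 16 weeks and WKY rats were given water in the same way. The labels give an age of 32 weeks, a difference from the start age plus treatment that the sources used here do not resolve. They also describe the aortas of both strains as irradiated, with no dose. The study had 10 WKY and 40 SHR, the latter in 4 groups, of which untreated SHR given water (SHR-C) and SHR given a high dose of the herbal preparation BSJY (SHR-Bh) entered the same fit with 3 arrays each. No WKY rats were given captopril, so drug and strain cannot be told apart in SHR-Ca against WKY. The labels do not say whether an array held the RNA of 1 animal, so each p-value speaks of the spread among these samples, which may be technical.

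Captopril blocks angiotensin-converting enzyme, which cuts angiotensin I to the vasoconstrictor angiotensin II and breaks down the vasodilator bradykinin. The drug lowers blood pressure in SHR, a strain bred from Wistar-Kyoto stock for high blood pressure, whose aortic wall thickens and stiffens with age. The 2 strains also differ at many sites in the genome, and the normotensive strain is therefore a comparison of genetic background as well as of blood pressure. Of 19 genes of the renin-angiotensin system and its neighbours and of 52 markers of cell types of the vessel wall, fat, blood, nerve and skeletal muscle, 0 carried a name on the array. Neither the target pathway of the drug nor the tissue label could be checked, and in whole tissue fewer cells of a type and less RNA per cell cannot be told apart.

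Levels are log2 intensities relative to the 75th percentile of the probes on the same array, so that a level of 0 lies at that percentile. The share of probes that cleared background was 62.0% ± 3.58 on the SHR-Ca arrays, from 58.0% to 65.0%, and 81.9% ± 7.19 on the WKY arrays, from 73.9% to 87.9% (SD, n = 3). The groups did not overlap, and an exact two-sided permutation test gave p = 0.10, the smallest that 3 against 3 allows. The WKY arrays were scanned in 1 session, 629 days after the last SHR-Ca scan, so scan and group cannot be told apart. All SHR arrays, those of SHR-C and SHR-Bh among them, were scanned within 4 days of each other. The differences of SHR-C and SHR-Bh from WKY therefore carry a like scan gap. Within the SHR-Ca group, arrays 1 and 2 shared a session and array 3 was in another. Pearson's r across probes, which are not independent replicates, was 0.773 to 0.832 between SHR-Ca and WKY arrays and 0.95 to 0.97 among SHR-Ca arrays. With 3 arrays a group, their number limits how precise any value is.

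Among the named genes, the aorta of captopril-treated SHR differed from that of WKY mainly by higher levels. By limma at an adjusted p under 0.05, 17 of the 31 tested genes were higher in SHR-Ca, 2 were lower and 12 were not called, beside 66.9% called among all tested probes (23.4% higher and 43.5% lower). Cyp2e1 was 424-fold higher, followed by Cdh2 (10.9-fold), Eif4b (7.89-fold), Odf2l (7.66-fold) and Trim2 (5.80-fold), while the glycolytic genes Pgk1 and Ldha were 1.98-fold and 2.05-fold lower, Ldha by the brighter of its 2 probes, which went opposite ways. The 3 SHR-Ca arrays lay apart from the 3 WKY arrays for 19 of the 31 genes, beside 72.0% of all tested probes. The median change was 0.87 over the 31 genes and -0.58 over all tested probes. However, 29 of the 31 genes cleared background on all 6 arrays, and many other probes did not. Of the 19978 probes that did, 58.3% were called, 5911 higher and 5742 lower. The groups lay apart for 64.4% of these probes, and their median change was 0.04. The named genes are few, are those whose probes carry an accession that matched a gene, and show no more about all genes than their own values. With every array scaled instead on 1 spike-in control probe, the only one of 10 that cleared background throughout, 1 named gene was called, Cyp2e1. Before scaling, the log2 intensity of that control probe was 7.90, 5.46 and 5.22 in WKY and 5.24, 6.23 and 5.89 in SHR-Ca. This scaling therefore adds the spread of 1 probe to every gene. What part that spread has in the lost calls was not tested. The wide differences of Cdh2 (2.89, limma adjusted p = 0.076), Eif4b (2.43, 0.15), Odf2l (2.39, 0.16) and Trim2 (1.99, 0.26) on that scale kept their direction and most of their size. The scaling shifts the difference of every gene downward by a like amount, so small rises kept less of theirs. Pdcd10 went from 1.09 to 0.54, Hprt1 from 0.87 to 0.32, Cse1l from 0.75 to 0.20 and Hsp90ab1 from 0.72 to 0.17. The falls grew, Pgk1 from -0.99 to -1.54 and Ldha from -1.04 to -1.59.

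**Figure D1:**
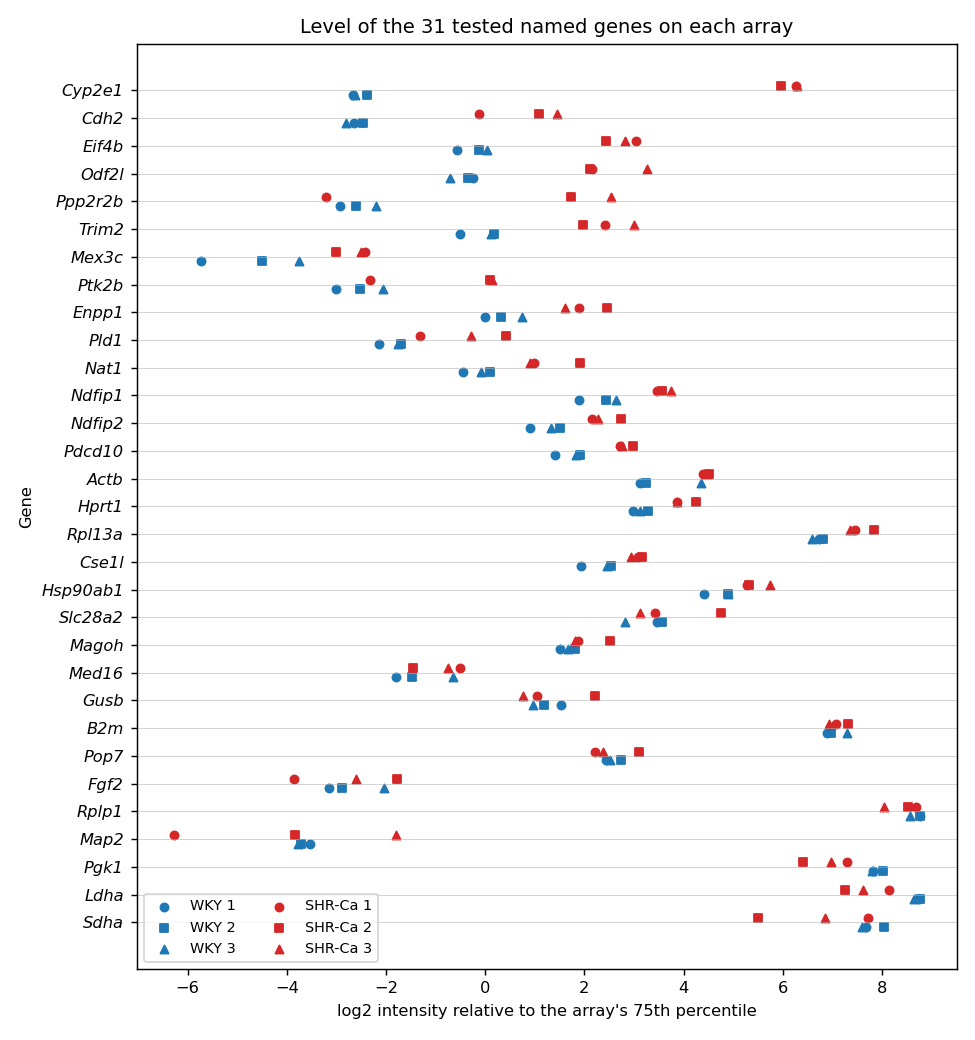
Level of each of the 31 tested named genes on each array, as log2 intensity relative to that array's 75th percentile on the horizontal axis. WKY arrays are blue and SHR-Ca arrays red, with a circle, square and triangle for arrays 1, 2 and 3. The SHR-Ca points of Cyp2e1 lie far to the right of those of WKY, and 1 SHR-Ca array lies with WKY for Ppp2r2b and Ptk2b.

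**Figure D2:**
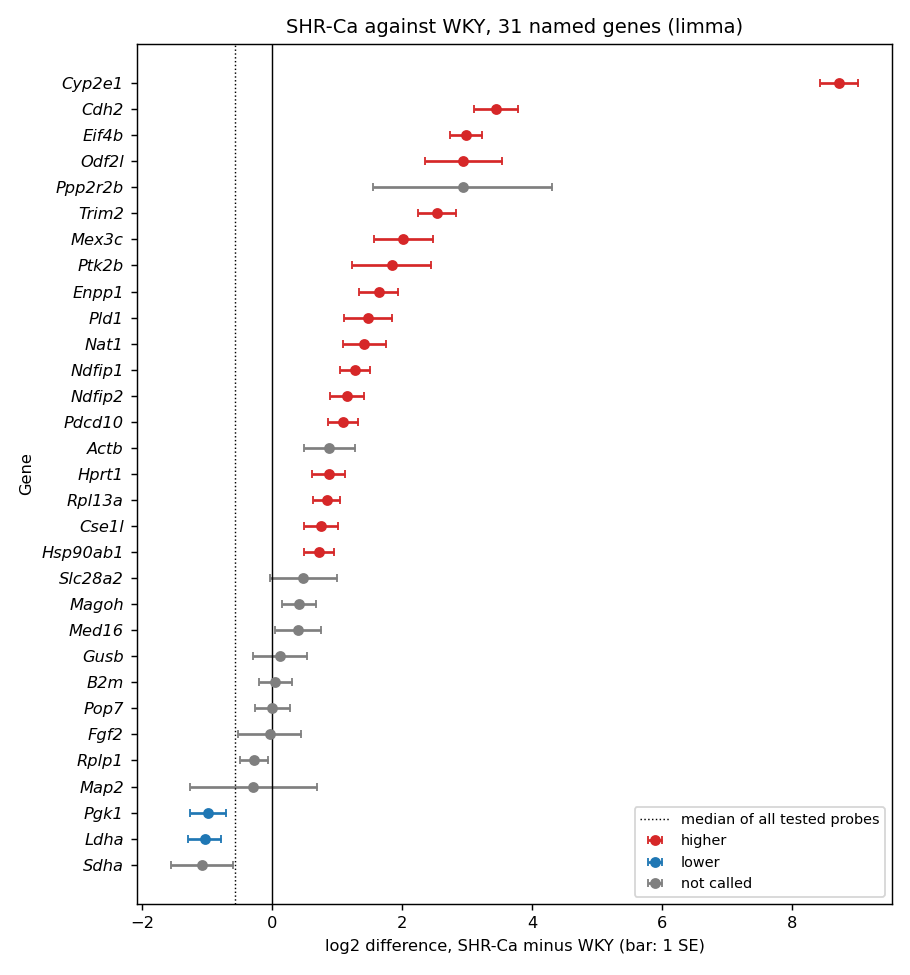
Difference between the SHR-Ca and WKY means of the same 31 genes on the log2 scale, with bars of 1 standard error from limma over 3 arrays a group. Red marks 17 genes called higher, blue 2 called lower and grey 12 not called, and the dotted line marks the median of all 29241 tested probes at -0.58.

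Both genes of xenobiotic metabolism were higher in SHR-Ca, as were 23.4% of all tested probes. Cyp2e1, a cytochrome P450 that oxidises ethanol, acetone and other small molecules and is best known from liver, had levels of -2.67, -2.38 and -2.62 on the WKY arrays and of 6.26, 5.97 and 6.28 on the SHR-Ca arrays. The groups were separated by a gap many times wider than the spread within either. The difference was 8.73 (SE 0.29, limma adjusted p = 2.3e-08) and stayed called under every alternative that was run, from 7.26 (normexp background correction) to 9.57 (quantile normalization). SHR-C lay 7.57 and SHR-Bh 7.33 above the same WKY arrays, so this level was also measured in SHR that had no captopril. Those groups share the scan gap to WKY. Nat1, which encodes an arylamine N-acetyltransferase, had -0.45, 0.09 and -0.09 in WKY and 0.99, 1.91 and 0.90 in SHR-Ca, a difference of 1.42 (SE 0.33, limma adjusted p = 0.0026) with no overlap.

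Cyp2e1 had the widest difference of the named genes, and its promoter is shown for that reason. The 250 bases before its annotated start, from RefSeq on build GRCr8 at chr1:205269717-205269966 on the plus strand, are printed with the letters TATAAA, the core of a TATA box, in capitals.
Cyp2e1 promoter: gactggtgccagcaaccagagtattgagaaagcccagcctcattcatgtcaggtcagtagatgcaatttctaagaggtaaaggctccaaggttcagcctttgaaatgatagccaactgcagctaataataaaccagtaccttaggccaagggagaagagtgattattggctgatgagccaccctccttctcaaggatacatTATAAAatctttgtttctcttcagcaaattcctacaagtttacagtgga
The motif occurs 1 time, 49 to 44 bases before the start on the gene's strand, and 0 times on the other strand. Among 33469 promoter windows of the same length, 2696 (8.06%) hold it on the gene's strand and 4328 (12.9%) on either strand. The sequence is that of the reference genome and not of SHR or WKY rats, and the arrays measured no sequence difference between the strains.

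Of 5 genes of cell adhesion and the vessel wall, 4 were higher in SHR-Ca and 1 was not called, beside 66.9% called and 23.4% higher among all tested probes. Cdh2 encodes N-cadherin, which joins smooth muscle cells to each other and to endothelium. Its levels were -2.64, -2.46 and -2.81 in WKY and -0.12, 1.09 and 1.44 in SHR-Ca. All SHR-Ca arrays lay above all WKY arrays, with array 1 the lowest of its group, and the difference was 3.44 (SE 0.34, limma adjusted p = 7e-06). It was 2.24 with normexp and 4.26 with quantile normalization. Enpp1, which makes the calcification inhibitor pyrophosphate from extracellular ATP, had -0.01, 0.32 and 0.74 in WKY and 1.90, 2.45 and 1.61 in SHR-Ca. The difference of 1.64 (SE 0.30, limma adjusted p = 0.00049) again came without overlap. Pdcd10, whose loss in endothelium causes cerebral cavernous malformations, had 1.41, 1.91 and 1.84 in WKY and 2.71, 2.97 and 2.76 in SHR-Ca. It was higher by 1.09 (SE 0.23, limma adjusted p = 0.0013).

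Ptk2b encodes Pyk2, a tyrosine kinase activated by calcium and by angiotensin II in vascular smooth muscle, and its arrays did overlap. Levels were -3.01, -2.52 and -2.07 in WKY and -2.32, 0.09 and 0.13 in SHR-Ca, where array 1 lay inside the WKY range and the other two more than 2 units above it. The difference of 1.84 (SE 0.61) passed the test (limma adjusted p = 0.019). The call was lost without WKY 1 (limma adjusted p = 0.067), without SHR-Ca 2 (0.076), without SHR-Ca 3 (0.078), with the percentile over bright probes (0.052) and on the spike-in scale (0.52), with 0.00032 as the lowest over the alternatives. The difference was 1.18 with normexp and 2.69 with quantile normalization. Fgf2, a growth factor for smooth muscle and endothelium, was -2.70 ± 0.58 in WKY and -2.74 ± 1.05 in SHR-Ca (SD, n = 3). Its difference of -0.04 (SE 0.49, limma adjusted p = 0.95) turned to 1.03 with quantile normalization and 0.31 with normexp, and was not called under any alternative.

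SHR-Ca 1 also had the lowest level of its group for Ppp2r2b, P2rx2 and Map2. Ppp2r2b, a brain-enriched regulatory B subunit of phosphatase PP2A, had -2.93, -2.60 and -2.21 in WKY and -3.22, 1.73 and 2.53 in SHR-Ca. Array 1 lay below every WKY array while arrays 2 and 3 lay about as high as the SHR-C arrays, at 1.67, 1.69 and 1.33. The mean difference of 2.93 (SE 1.38) did not pass the test (limma adjusted p = 0.080), and it was called without SHR-Ca 1 (4.71, limma adjusted p = 0.0022), with quantile normalization (3.83, 0.027), with normexp (2.31, 0.032) and with array weights (0.002). P2rx2, an ATP-gated cation channel, was not tested because it cleared background on 2 of 3 arrays in each group. It had -5.29, -4.78 and -4.40 in WKY and -6.10, -1.79 and -0.95 in SHR-Ca, again with array 1 at the bottom. Map2, a microtubule protein of dendrites, had -3.53, -3.72 and -3.78 in WKY and -6.28, -3.84 and -1.80 in SHR-Ca, a difference of -0.29 (SE 0.98, limma adjusted p = 0.80), with its 3 SHR-Ca arrays about evenly spaced. Without SHR-Ca 1 the Map2 difference was 0.86, also not called, and it turned to 1.05 with quantile normalization and 0.48 with normexp. In the SHR-Bh group arrays 2 and 3 were the low ones, where Ppp2r2b was 1.42, -2.73 and -2.79 and P2rx2 was -2.24, -5.67 and -6.53.

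**Figure D3:**
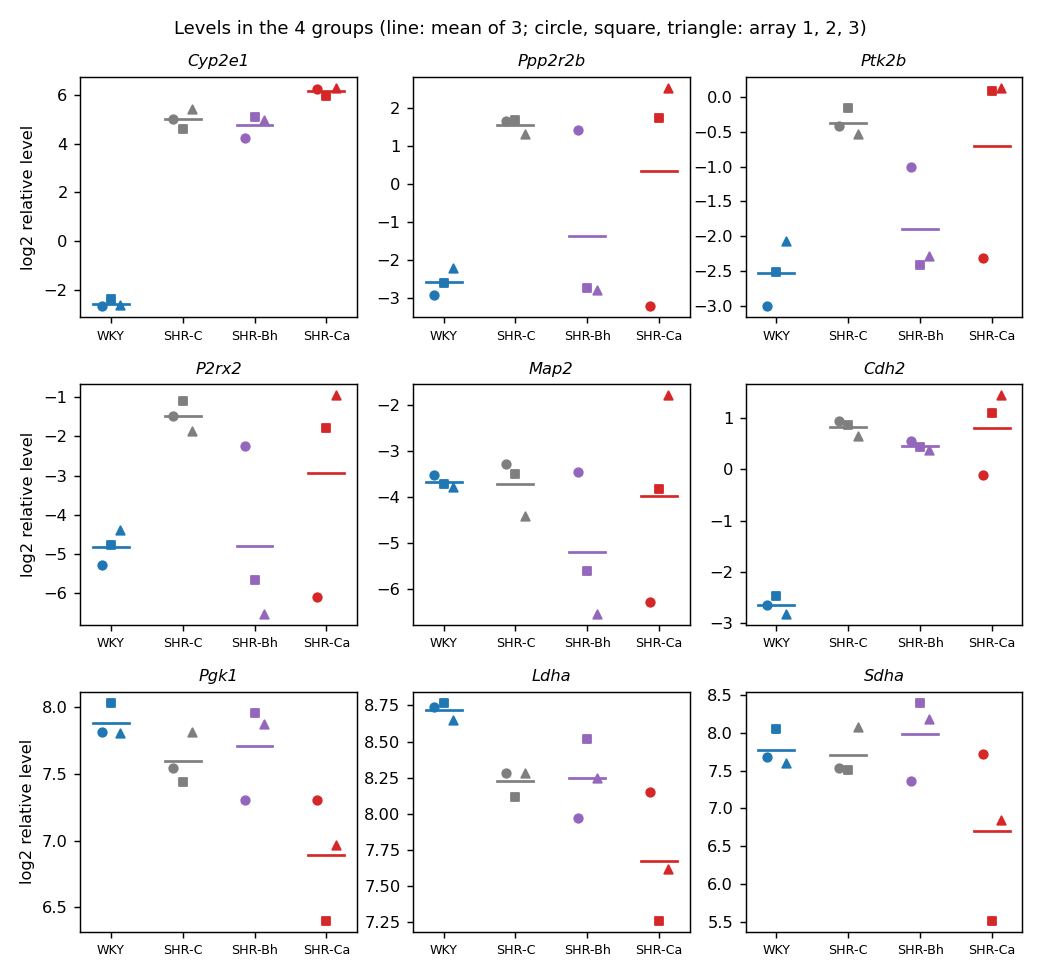
Levels of 9 genes on the 3 arrays of each of the 4 groups, as log2 levels set against the 75th percentile, on a separate vertical scale per gene, with a line at the mean and a circle, square and triangle for arrays 1, 2 and 3. Cyp2e1 and Cdh2 are high in all SHR groups, which share the scan gap to WKY. Ppp2r2b, Ptk2b, P2rx2 and Map2 are lowest on array 1 within SHR-Ca.

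Over all tested probes, SHR-Ca 1 lay within the WKY range while the other two SHR-Ca arrays were both at least 2 log2 units outside it for 48 probes, 42 with the others above and 6 with them below. The same count was 13 for SHR-Ca 2 (4 above and 9 below) and 4 for SHR-Ca 3 (0 above and 4 below). The median SD of a probe between arrays was 0.39 in SHR-Ca and 0.23 in WKY. An SD above 1 was found for 3262 probes (11.2%) in SHR-Ca and 1274 (4.36%) in WKY. These counts are of 29241 tested probes and see only an array that lies within the WKY range. By other measures SHR-Ca 2 was the extreme array. Its fitted array weight was 0.325, beside 0.471 for SHR-Ca 1 and 1.96 for SHR-Ca 3. Its r with the WKY arrays was 0.773, 0.783 and 0.797, just under the 0.78, 0.791 and 0.799 of SHR-Ca 3. What sets array 1 apart for the 48 probes was not tested.

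All 4 genes of ubiquitin ligases and their adaptors were higher in SHR-Ca, beside 23.4% of all tested probes and 17 of the 31 named genes, with a median difference of 1.65. The spike-in scale called none of these 4, and each was called under every other alternative that tested it. Trim2, a ubiquitin ligase known from axons, had -0.50, 0.17 and 0.12 in WKY and 2.41, 1.98 and 3.00 in SHR-Ca. The difference was 2.54 (SE 0.29, limma adjusted p = 1.7e-05), with no overlap. Ndfip1 and Ndfip2 are membrane adaptors that recruit and activate Nedd4-family ligases, the family that removes the epithelial sodium channel from the cell surface. Ndfip1 had 1.89, 2.44 and 2.64 in WKY and 3.47, 3.57 and 3.74 in SHR-Ca, a difference of 1.27 (SE 0.23, limma adjusted p = 0.00057). Ndfip2 had 0.90, 1.51 and 1.32 in WKY and 2.16, 2.74 and 2.28 in SHR-Ca, a difference of 1.15 (SE 0.26, limma adjusted p = 0.0022). Both adaptors lay apart between the groups. Mex3c, an RNA-binding ubiquitin ligase, was dim in both, at -5.73, -4.51 and -3.76 in WKY, where it cleared background on 2 of 3 arrays, and -2.43, -3.00 and -2.50 in SHR-Ca. It was higher by 2.02 (SE 0.46, limma adjusted p = 0.0022), by 0.76 with normexp and by 3.18 with quantile normalization.

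Of 3 genes of translation 2 were higher and 1 was not called, beside 66.9% called and 23.4% higher among all tested probes. Eif4b, an initiation factor that stimulates unwinding of messenger RNA by the helicase eIF4A, had -0.56, -0.12 and 0.03 in WKY and 3.04, 2.43 and 2.82 in SHR-Ca. The arrays separated completely, with a difference of 2.98 (SE 0.25, limma adjusted p = 2.7e-06). Of the ribosomal protein genes, Rpl13a rose from 6.71 ± 0.11 to 7.55 ± 0.26 (SD, n = 3; difference 0.84, SE 0.21, limma adjusted p = 0.0047), and Rplp1 was 8.70 ± 0.12 and 8.42 ± 0.33 (difference -0.28, SE 0.22, limma adjusted p = 0.28). Of the 2 phospholipase genes, Pld1, which makes the lipid messenger phosphatidic acid, had -2.14, -1.70 and -1.75 in WKY and -1.31, 0.41 and -0.29 in SHR-Ca. It was higher by 1.47 (SE 0.37, limma adjusted p = 0.0042), and by 2.09 with quantile normalization. Napepld, which makes N-acylethanolamines such as anandamide, was not tested.

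Of the 31 named genes 2 were called lower in SHR-Ca, beside 43.5% of all tested probes. Both encode glycolytic enzymes and were measured by probes with 30 spots on each array. Pgk1, phosphoglycerate kinase, had 7.81, 8.03 and 7.80 in WKY and 7.30, 6.40 and 6.97 in SHR-Ca. Every SHR-Ca array lay below every WKY array, and the difference was -0.99 (SE 0.28, limma adjusted p = 0.0078). Ldha, the muscle-type subunit of lactate dehydrogenase, had 8.74, 8.77 and 8.65 in WKY and 8.15, 7.26 and 7.62 in SHR-Ca, a difference of -1.04 (SE 0.25, limma adjusted p = 0.0036). A second Ldha probe, with 10 spots, went the other way, from 3.78 ± 0.35 to 4.64 ± 0.63 (SD, n = 3; difference 0.86, SE 0.31, limma adjusted p = 0.028). The mean of both Ldha probes differed by -0.09 (limma adjusted p = 0.79), so the direction of Ldha depends on the probe. Sdha, a subunit of mitochondrial succinate dehydrogenase, had 7.68, 8.05 and 7.60 in WKY and 7.72, 5.51 and 6.85 in SHR-Ca. Array 1 was within the WKY range and array 2 more than 2 units below it, and the difference of -1.08 (SE 0.48) was not called (limma adjusted p = 0.067). Without SHR-Ca 1 it was -1.60 (limma adjusted p = 0.0079).

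The genes commonly used as references moved both ways. Of 10, 3 were higher (Hprt1, Rpl13a and Hsp90ab1), 2 were lower (Pgk1 and Ldha) and 5 were not called, a smaller share of calls than the 66.9% of all tested probes. Their differences ran from -1.08 for Sdha to 0.88 for Actb, with a median of 0.08. Hprt1, an enzyme of purine salvage, rose from 3.13 ± 0.15 to 3.99 ± 0.23 (SD, n = 3; difference 0.87, SE 0.25, limma adjusted p = 0.0089). Hsp90ab1, a chaperone, differed by 0.72 (SE 0.23, limma adjusted p = 0.017), a call lost with quantile normalization (0.055), with normexp (0.081), with the percentile over bright probes (0.11), on the spike-in scale (0.95), and without WKY 1 (0.071) or SHR-Ca 3 (0.072). Actb, cytoskeletal actin, had 3.12, 3.25 and 4.35 in WKY and 4.39, 4.52 and 4.47 in SHR-Ca. WKY 3 lay just under the SHR-Ca arrays, and the difference of 0.88 (SE 0.39, limma adjusted p = 0.066) was 1.27 (limma adjusted p = 0.013) without that array. B2m, of class I antigen presentation, and Gusb, a lysosomal enzyme, differed by 0.05 (SE 0.25) and 0.12 (SE 0.41), and the sign of each changed with the scaling: B2m was -0.22 and Gusb -0.16 when the percentile was taken over the probes that cleared background on all 12 arrays.

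Of the other 12 named genes 7 were tested. Of these, 2 were higher and 5 not called, beside 66.9% called and 23.4% higher among all tested probes. Odf2l, a centriole protein, had -0.24, -0.34 and -0.71 in WKY and 2.15, 2.11 and 3.26 in SHR-Ca, a difference of 2.94 (SE 0.59, limma adjusted p = 0.00099) with no overlap. Cse1l, which returns importin alpha from the nucleus, had 1.94, 2.53 and 2.46 in WKY and 3.08, 3.17 and 2.93 in SHR-Ca. Its difference of 0.75 (SE 0.26, limma adjusted p = 0.023) lost its call without WKY 1 (0.096), without SHR-Ca 2 (0.058) and with normexp (0.11). The 5 not called were Slc28a2, a nucleoside transporter (0.48), Magoh, of the exon junction complex (0.41), Med16, of the mediator complex (0.40), Pop7, a subunit of ribonuclease P (0.00), and Map2. The 7 genes not tested, because neither group cleared background on all its arrays, were Dlg4, Gdnf, Lhcgr, Napepld, Nlrp3, P2rx2 and Pdk3. Of these, Gdnf and Lhcgr cleared background on 0 arrays of either group, while P2rx2 was well above it on SHR-Ca 2 and SHR-Ca 3. With no filter 19 named genes were called higher, beside 17 with it.

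SHR-Ca was set directly against SHR-C, the untreated animals of the same strain, to ask whether the levels that differed from WKY also differed between treated and untreated SHR. By limma, 0 of the 31 named genes were called, and 3 had an unadjusted p under 0.05. Cyp2e1 was 1.16 higher with captopril (SE 0.29, limma adjusted p = 0.18), Actb 1.30 higher (SE 0.39, limma adjusted p = 0.27) and Pgk1 differed by -0.70 (SE 0.28, limma adjusted p = 0.36). For Cyp2e1 all SHR-Ca arrays lay above the SHR-C mean of 5.01 ± 0.41 and the SHR-Bh mean of 4.78 ± 0.46 (SD, n = 3). For Cdh2 and Eif4b the difference from SHR-C was 0.00 (SE 0.34 and 0.25). Over the same 29241 probes the direct comparison called 69 (0.236%), 0 higher and 69 lower in SHR-Ca. An unadjusted p under 0.05 was found for 3577 of them, a larger share than that threshold alone would pass. With so few calls over all probes, 0 calls among 31 genes do not show that the groups are alike. Leaving out SHR-Ca 1 gave 127 called probes, leaving out SHR-Ca 2 or SHR-Ca 3 gave 38 or 39, and leaving out WKY 2 gave 45. The number called was 11 with normexp and 179 with array weights.

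The 3 SHR groups were compared with the same 3 WKY arrays, so their values against WKY are not independent and stand side by side only as values. By limma, SHR-C differed from WKY at 18133 of the 29241 probes (62.0%) and SHR-Bh at 19857 (67.9%), and 17 and 15 of the 31 named genes were called. Pgk1 differed from WKY by -0.99 in SHR-Ca, -0.29 in SHR-C and -0.18 in SHR-Bh, and Ldha by -1.04, -0.49 and -0.47. Only the SHR-Ca values passed the test, and the direct difference between SHR-Ca and SHR-C was -0.70 for Pgk1 and -0.55 for Ldha, neither called (limma adjusted p = 0.36 and 0.41). Ptk2b differed from WKY by 1.84 in SHR-Ca, 2.17 in SHR-C and 0.63 in SHR-Bh, and Odf2l by 2.94, 1.93 and 2.82.

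Most of the probes carry only an identifier of the array design, and coding and long non-coding transcripts were not separated here. In all, 19564 of the 29241 tested probes were called, 6853 higher and 12711 lower in SHR-Ca. The division followed where a probe was above background. Of 19978 probes that cleared background on all 6 arrays, 5911 rose and 5742 fell, with a median change of 0.04. Of 4716 probes that cleared it on all WKY arrays and on 0 SHR-Ca arrays, 4607 were called lower, a direction that the filter sets. The median there was -3.10 as measured and -1.86 when the SHR-Ca level was replaced by a bound, which was the lowest level that cleared background on that array or, if higher, what the probe itself read. That bound is not a strict limit, since a probe above the lowest such level can fail to clear background. On SHR-Ca 3 that level was -5.12, and Nlrp3 read -4.83 there without clearing. The reverse, on all SHR-Ca arrays and on 0 WKY arrays, held for 107 probes. At 2-fold or more, with bounds in place, 5560 of the called probes were higher and 11323 lower.

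**Figure D4:**
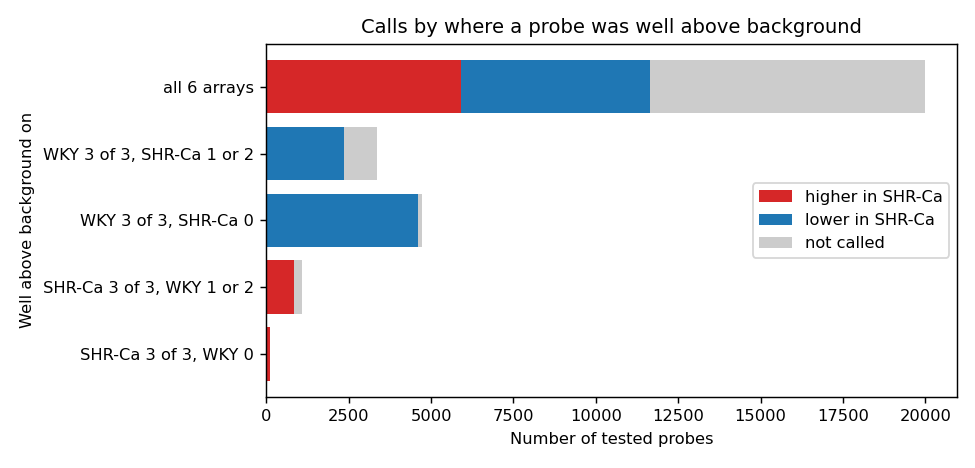
Number of tested probes by the arrays on which they cleared background, divided into those called higher in SHR-Ca (red), called lower (blue) and not called (grey). The 19978 probes above background on all 6 arrays divide almost evenly, and the excess of lower calls lies in probes above background on all WKY arrays and on 0 to 2 SHR-Ca arrays.

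The balance of directions changed with the scaling, with the filter and with the normexp alternative, which replaced the signal, its background correction and its offset together. Higher calls made up 35.0% of all calls, 46.4% with quantile normalization, 52.5% with normexp, 50.7% among probes above background on all 6 arrays, and 3.95% when arrays were scaled on the 1 spike-in control probe. The median change of all tested probes was -0.58, and it was -0.16 with quantile normalization, 0.08 with normexp, -0.86 with the percentile over probes bright on all 12 arrays and -1.13 on the spike-in scale. The named genes called higher were 17 on the first scale, 17 with quantile normalization, 16 with normexp, 15 with the percentile over bright probes and 1 on the spike-in scale. SHR-Ca arrays were also dimmer before scaling, with a median intensity of 17.0 ± 2.62 against 66.1 ± 22 in WKY (SD, n = 3; exact permutation test, p = 0.10). What part brightness has in the lower calls was not tested.

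The widest differences among the unnamed probes were found for 4 identifiers. ASRNV20001332 had -4.10, -3.27 and -3.62 in WKY, where it cleared background on 2 of 3 arrays, and 6.27, 6.06 and 6.31 in SHR-Ca (difference 9.88, SE 0.30, limma adjusted p = 2.3e-08). Its means in SHR-C and SHR-Bh were 5.05 and 4.78, so it was high in every SHR group. These levels lie close to those of Cyp2e1, at 6.26, 5.97 and 6.28 in SHR-Ca and with means of 5.01 and 4.78. Whether both probes read the same transcript was not tested, so they may not be separate results. Every SHR group shares the scan gap to WKY. ASRNV20032162 had 0.44, -3.86 and -4.72 in WKY and 4.17, 4.24 and 5.30 in SHR-Ca, so that WKY 1 stood apart from its group. Its difference of 7.28 (SE 1.19, limma adjusted p = 0.00024) ran from 6.28 to 8.86 over the fits that left out 1 array. In the other direction, ASRNV20009029 fell from 5.44, 6.05 and 5.31 in WKY to -3.76, -4.45 and -3.59 in SHR-Ca, a difference of -9.53 (SE 0.40, limma adjusted p = 6.6e-08). ASRNV20030858 fell from 5.37, 5.73 and 5.45 to -3.61, -4.17 and -3.98, a difference of -9.44 (SE 0.44, limma adjusted p = 1e-07). Both also had low means in SHR-C, at -3.33 each. Their levels were much alike, and whether they read the same transcript was not tested.

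Ultraconserved elements, stretches of genome almost identical between human, mouse and rat, some of which are transcribed, were covered by 962 probes for both strands of 481 elements. Of these, 458 probes were tested, 441 of them through WKY and 191 through SHR-Ca. By limma 49 were higher, 335 lower and 74 not called, so that 83.8% were called beside 66.9% of all tested probes. Of the 458, 267 entered the test only through WKY, where they were high, and these held 254 of the 335 lower calls, so the filter set much of both the direction and the share. Their median change was -2.42, or -1.61 with bounds in place, beside -0.58 over all tested probes. In the 174 element probes that cleared background on all 6 arrays, 38 rose and 81 fell (68.4% called, beside 58.3% of all such probes), with a median of -0.86 beside 0.04. With normexp the median was -0.09 beside 0.08, with 49 higher and 110 lower, so the size of the shift was not stable. That alternative also took the median in place of the processed signal and added an offset of 50, and which of these changes mattered was not tested.

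**Figure D5:**
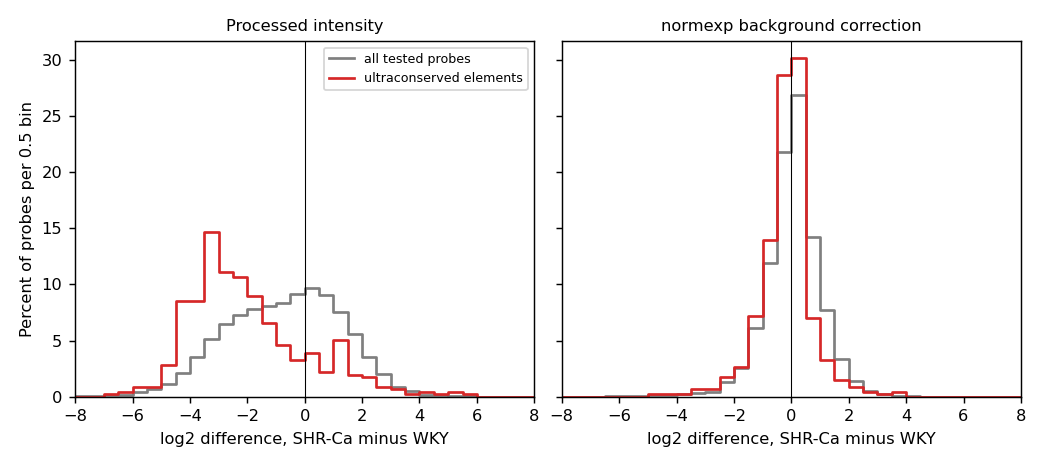
Distribution of the difference between SHR-Ca and WKY on the log2 scale for all 29241 tested probes (grey) and for the 458 tested probes of ultraconserved elements (red), as percent of probes per bin of 0.5. With the processed intensity (left) the element probes centre at -2.42 and all probes at -0.58, while with normexp (right) the medians are -0.09 and 0.08.

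The 2 strands of an element could be compared for 129 elements. Both strands were lower for 62, both were higher for 1, the strands were called in opposite directions for 19, 1 strand alone was called for 38 and neither for 9. Since most element probes were tested only through WKY, the filter favours lower calls on both strands. Both strands cleared background on all 6 arrays for 30 elements, of which 3 were lower on both, 1 was higher on both, 4 had opposite calls, 17 had 1 strand called and 5 had neither. The 4 with opposite calls included uc.153, with a change of 1.93 on the plus strand and -3.65 on the minus strand, and uc.360, with 2.85 and -2.09. These examples and the following probes were chosen after their values were seen. The plus-strand probe of uc.172 had 0.43, 0.91 and 0.63 in WKY and did not clear background on any SHR-Ca array, at -5.97, -5.99 and -5.91. With the bound in place it was 44.6-fold lower in SHR-Ca on the processed intensity (limma adjusted p = 3.2e-07 as measured). With normexp its difference was only -2.40 on the log2 scale, so the 44.6-fold holds for the processed intensity alone. The minus-strand probe of uc.23 was 20.4-fold lower with its bound in place (limma adjusted p = 2.5e-07 as measured), and differed by -1.49 with normexp. The plus-strand probe of uc.447 was higher, with 0.08, -3.22 and -4.02 in WKY and 2.59, 2.71 and 3.52 in SHR-Ca (difference 5.33, SE 1.00, limma adjusted p = 0.00062). WKY 1 again lay far above the other two WKY arrays, as it did for the plus-strand probe of uc.309, at -2.57 against -6.86 and -7.13.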

How the data were processed

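The authors deposited 1 scanner file per single-colour Agilent array. Per the file headers, the software was Agilent Feature Extraction 11.0.1.1, which made the processed intensity of each spot, with background subtracted, and the flags; no step between arrays is recorded. No non-control spot was saturated. Control spots and outlier-flagged spots were dropped, the log2 intensities of a probe's spots were averaged, and the array's 75th percentile was subtracted. A probe with several spots counted as well above background where most of its kept spots did. All 12 arrays were fitted with 1 mean per group in limma 3.58.1 under R 4.3.3, with moderated two-sided tests and Benjamini-Hochberg adjustment over 29241 probes at a threshold of 0.05. For 103 of these, an array with no kept spot was left out of that probe's fit. Of 62 probes with an accession, 39 matched 38 genes of the RefSeq table (GRCr8); the array design names an older build, so the probes are given no coordinates. The brightest probe stood for a gene. All named genes are described; unnamed probes are the 2 widest differences in each direction without overlap. The members and lists were chosen with earlier results of these data known. Alternatives were other normalizations and scalings, normexp (offset 50), filters, outlier spots kept, variance models, array weights, scan session or replicate number as a block, and leaving out each array. The files used here hold no mean signal, so normexp took the median signal and median background. The fit was tested on simulated data with independent noise and no scan or brightness difference between groups, so that test cannot speak to those limits.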

Additional observations from a re-analysis of the deposited data

Results flagged for a closer look

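Actb lay on opposite sides of the WKY mean in captopril-treated and untreated SHR, and neither difference from WKY was called. All 3 SHR-Ca arrays lay above the WKY mean (difference 0.88, SE 0.39, limma adjusted p = 0.066) and all 3 SHR-C arrays below it, at 3.27, 3.56 and 2.63 against a WKY mean of 3.57 (difference -0.42, limma adjusted p = 0.37). The SHR-C and WKY arrays overlapped, and both differences share the WKY arrays. The direct difference between SHR-Ca and SHR-C was 1.30 (SE 0.39), and it was not called (limma adjusted p = 0.27).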

How the results depend on the processing

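No alternative turned the direction of a called gene. Calls of probes came to 5641 (223 higher, 5418 lower) on the spike-in scale, to 12161 (5776 lower) with normexp and to 11711 (5770 lower) with the filter on all 6 arrays. The spike-in scale, which rests on 1 control probe, left 1 named gene higher and 0 lower by limma and a reference-gene median of -0.47. The genes lower numbered 4 with the percentile over bright probes, 4 with array weights and 1 with a gene's probes averaged. The median of the ultraconserved element probes was -1.36 with quantile normalization, -2.97 on the spike-in scale, -0.09 with normexp, -1.08 with no filter and -0.86 with the strict filter. Signs turned only for genes not called: Fgf2 (1.03), Gusb (-0.13), Map2 (1.05) and Pop7 (-0.26) with quantile normalization; B2m (-0.22), Gusb (-0.16) and Pop7 (-0.27) with the percentile over bright probes; B2m (-0.50), Gusb (-0.44), Magoh (-0.14), Med16 (-0.15), Pop7 (-0.55) and Slc28a2 (-0.07) on the spike-in scale; B2m (-0.04), Fgf2 (0.31), Map2 (0.48) and Pop7 (-0.05) with normexp. With array weights they turned for B2m (-0.04), Gusb (-0.17), Map2 (0.92) and Pop7 (-0.22), without WKY 1 for B2m (-0.02) and Pop7 (-0.06), and without WKY 3 for Fgf2 (0.29), Gusb (-0.02) and Pop7 (-0.02). Without SHR-Ca 1 they turned for Fgf2 (0.51) and Map2 (0.86), and without SHR-Ca 2 for B2m (-0.05), Gusb (-0.32), Pop7 (-0.27) and Slc28a2 (-0.01). Leaving out 1 array gave 17822 to 19297 probes called (6023 to 6738 higher, 11684 to 12559 lower), 14 to 18 named genes higher and 2 to 3 lower, an element median of -2.53 to -2.37 (43 to 47 higher, 318 to 330 lower) and a reference median of -0.18 to 0.27 (2 to 4 higher, 2 to 3 lower). Over these fits B2m ran up to 0.18, Pop7 up to 0.18, Gusb up to 0.40 and Slc28a2 up to 0.80, and Fgf2 down to -0.52 and Map2 down to -1.38. The SHR-Ca arrays of 1 session are those left without SHR-Ca 3. The scan session as a random block left 18494 probes called. The WKY arrays, and no others, made up 1 session, so this block cannot remove a session difference between WKY and SHR. With the replicate number as a block (replicate block), 19273 probes were called and no named gene changed its call; deviations of same-numbered arrays correlated at -0.10, -0.17 and -0.13, so the numbers do not pair them. The cause of these changes was not tested. Dim probes limit the comparison, since in SHR-Ca fewer stand above background.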

Other observations

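A further 21 tested probes carry an accession that did not match a gene, and 10 of them were higher in SHR-Ca, 3 lower and 8 not called by limma (61.9% called, near the 66.9% of all tested probes). The widest differences were those of the probe for M31178, from 0.20 ± 0.33 in WKY to 4.04 ± 0.30 in SHR-Ca (difference 3.84, SE 0.28, limma adjusted p = 1.1e-06), and of the probe for M15402, from 0.60 ± 0.18 to -2.48 ± 1.14 (SD, n = 3; difference -3.08, SE 0.47, limma adjusted p = 0.00014). Both were chosen after their values were seen. WKY 1 lay within the SHR-Ca range for 28 probes for which both other WKY arrays were at least 2 log2 units below that range, a count that was 0 for WKY 2 and 3 for WKY 3.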
